A study of Mus musculus with 10 samples.

Results

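Prenatal neurogenesis in the mouse neocortex was measured as the change in ribosome footprints between E12.5 and E17, stages counted in embryonic days. Ribosome profiling (Ribo-seq) sequences the mRNA fragments that ribosomes protect from RNase, so a footprint count reflects both how much of an mRNA was present and how densely ribosomes occupied it. The comparison set 2 libraries labelled E17 against 2 labelled E12.5, out of 10 libraries in the series, and took in every gene whose footprints at either stage, both libraries together, came to 32 or more, which held for 12969 of the 22373 genes in the table. Both groups were untreated wild-type CD-1 mice, with neocortex dissected from timed pregnancies and pooled over brains, so a replicate is a pool and not an animal. Libraries of E14 and E15.5, 2 each, entered the fit to help estimate the spread, and the 2 libraries from the day of birth were left out.

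The neocortex forms from a sheet of neuroepithelial stem cells that line the ventricle. These apical progenitors (radial glia) first divide to enlarge the pool, then give rise to intermediate progenitors and neurons, with deep-layer neurons born before upper-layer neurons and glia last. E12.5 lies at the start of this sequence and E17 near its end, when many cells have left the cell cycle and begun to extend axons and dendrites.

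The E12.5 libraries held 21378041 and 33107909 counts and the E17 libraries 28756045 and 23922339. Replicates differed by a log2 ratio whose SD, taken across the 4566 genes averaging 500 counts or more, came to 0.21 for E12.5 and 0.13 for E17. Histone genes whose symbol starts with Hist took 34.0% and 38.5% of the counts at E12.5 and 13.6% and 12.2% at E17, and 65 of the 66 were called lower, with a median log2 fold change of -1.97. Many histone genes are near-identical copies, so single members are not named here. In E12.5 replicate 1, 34 genes had at least 100 counts and a level at least 10 times that of replicate 2, and 0 of them were called by limma-voom. The gap between replicates by which they were picked widens their spread and made a call unlikely. Levels are given as CPM (counts scaled to a common library size, after TMM normalization), which are not corrected for gene length, so that a difference in CPM between genes is a difference in footprints and not in level per length.

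Calls required an adjusted p under 0.05 (limma-voom, Benjamini-Hochberg adjustment over all genes tested) together with a change of at least 25% over the lower stage. At E17, 4188 genes (32.3%) were called higher and 4140 (31.9%) were called lower, so that 64.2% of the genes tested changed. Of the genes tested, 737 reached 32 footprints only at E17, with 564 called higher and 0 lower. A further 573 reached 32 footprints only at E12.5, with 431 called lower and 0 higher. This filter fixed the direction of those calls, which are part of the counts given here. The median log2 fold change over all genes was 0.00, and the quartiles were -0.62 and 0.64, with a median standard error (SE) of 0.13. A rise of at least 2-fold was called for 2083 genes (16.1%) and a fall of that size for 1950 (15%). At 4-fold or more there were 810 rises (6.25%) and 686 falls (5.29%), at 8-fold 275 (2.12%) and 179 (1.38%), and at 16-fold 95 (0.733%) and 86 (0.663%). The CPM of both libraries of one stage lay above both of the other for 83.9% of genes. In the plot of levels at both stages, called genes lie on both sides of the diagonal. In bulk tissue, fewer cells of a type and fewer footprints of a gene per cell cannot be told apart, and this holds for every change below.

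The even split depended on the scaling. When libraries were scaled by total counts alone, the median log2 fold change of all genes moved to 0.41, and 72.9% of the called genes were higher against 50.3% with TMM factors. All 4188 genes called higher were called higher in both scalings, whereas 2396 of the 4140 called lower were. With total counts taken without the Hist genes the median was -0.05, with 3953 genes called higher and 4326 called lower.

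**Figure D1:**
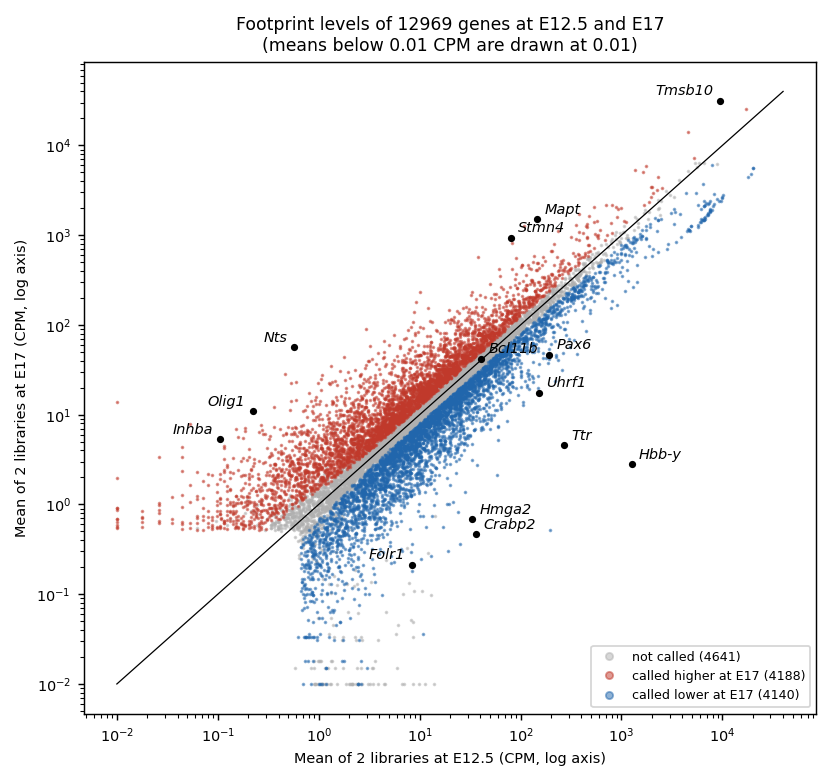
Mean footprint level of each of the 12969 genes at E12.5 (horizontal axis, CPM, log scale) and at E17 (vertical axis, CPM, log scale), each a mean of 2 libraries, with genes called higher in red, called lower in blue and not called in grey. Nts and Mapt lie well above the diagonal, Hbb-y and Ttr well below it, and Bcl11b on it.

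The 10 largest rises named here were of genes with at most 25 counts over both E12.5 libraries. All 10 passed the filter only through E17, which fixed their direction. Scrg1, a small secreted protein, had 0 counts in both E12.5 libraries and 473 and 359 counts at E17, at least 216-fold higher against a floor of 3 counts over the stage. Tunar had 3 counts at E12.5 and 478 at E17, a ratio of 124 with a counting interval of 42.3 to 605. Nts, the precursor of the neuropeptide neurotensin, rose from 0.792 and 0.356 CPM to 50.6 and 63.1 CPM, a log2 fold change of 6.77 ± 0.41 (SE). The other members of the top 10 were Fam19a1, Fam19a2, Stum, Olig1, Bean1, Grip2 and Caln1, with log2 fold changes between 5.42 and 6.70. Fam19a1 and Fam19a2 encode secreted chemokine-like proteins, Olig1 a transcription factor of the oligodendrocyte lineage, Grip2 a scaffold that binds glutamate receptors, and Caln1 a calcium-binding protein. The rule for these 10 required both libraries of one stage to lie above both of the other, and the mean of each was higher at E15.5 than at E14.

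The largest falls were led by embryonic globins. Hbb-y, the beta-like globin of the first red blood cells, fell from 1220 and 1298 CPM to 3.15 and 2.43 CPM, a log2 fold change of -8.81 ± 0.21 (SE). Hba-x and Hbb-bh1 fell with it, by 8.63 and 6.18 on the log2 scale. Kcne2, a potassium channel subunit, went from 482 counts at E12.5 to 2 at E17, a ratio of 309 with a counting interval of 85.0 to 2560. Folr1, a folate receptor, went from 401 counts to 14, a ratio of 36.7 with a counting interval of 21.6 to 67.7, and Ttr, the thyroid hormone carrier of the choroid plexus, fell by 5.88. Crabp2 (retinoic acid binding), Cldn11 (a tight junction claudin), Hmga2 and Pf4 (platelet factor 4) completed the top 10, with log2 fold changes between -5.68 and -6.41. Kcne2, Folr1, Hbb-bh1, Crabp2, Cldn11 and Pf4 passed the filter only through E12.5, which fixed their direction. All 14 counts of Folr1 at E17 were in replicate 1. Ttr was highest at E14, at a mean of 1032 CPM.

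In footprints gained, the leading genes were actin- and tubulin-binding proteins. Tmsb10 (thymosin beta 10, which binds actin monomers) went from 10290 and 8793 CPM to 31160 and 31970 CPM, and Stmn1 (stathmin, which binds tubulin dimers) from 4854 and 4272 to 14000 and 14460 CPM. Tmsb4x and Gng2, a G protein gamma subunit, followed, with log2 fold changes of 0.60 and 1.97. Gm9844 also ranked among the 5 largest gains, but its counts were between 17.1% and 18.8% of those of Tmsb10 in each of the 8 prenatal libraries, so reads shared with a near-identical copy cannot be told apart and its rise is uncertain. The 5 largest losses outside the Hist genes were of H2afj (a histone H2A), Hmgn2 (a nucleosome-binding protein), Hnrnpa2b1 (an RNA-binding protein of the nucleus), and the identifiers ENSMUSG00000096807 and ENSMUSG00000064168, for which no symbol was found. H2afj fell from 4348 and 4756 CPM to 1227 and 1090 CPM, a log2 fold change of -1.975 beside a median of -1.97 for Hist genes. The identifiers without a symbol stood at -1.90 and -1.95. Multimapping reads were kept, so H2afj and these identifiers may hold reads shared with Hist genes, which was not tested.

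Genes of S phase and of G2 and M phase fell almost without exception. All 43 S phase genes tested were called lower, with a median log2 fold change of -2.06 against 0.00 over all genes, and 39 of them fell at least 2-fold. Of the 54 genes of G2 and M phase, 51 were called lower and 1 higher, with a median of -2.28. The quartiles within the S phase list were -2.39 and -1.61, and 1 of the 43 passed the filter only through E12.5, which fixed its direction. The helicase subunits Mcm2, Mcm4, Mcm5 and Mcm6, which unwind DNA ahead of replication, had log2 fold changes of -2.67, -2.43, -2.65 and -2.06.

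Uhrf1, which brings the maintenance DNA methyltransferase to newly copied DNA, had 147 and 157 CPM at E12.5 and 17.5 and 17.5 CPM at E17. Its log2 fold change was -3.12 ± 0.13 (SE, adjusted p = 6.83e-07), the largest fall of the S phase list. Cdc6, which loads the helicase at origins, and Hells, a chromatin remodeller, fell by 2.92 and 2.71. Pcna, the sliding clamp of the polymerases, fell less, from 279 and 269 CPM to 91.5 and 90.8 CPM, a log2 fold change of -1.59. Pold3, a polymerase subunit, had the smallest fall of the list, at -0.65.

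Among mitotic genes, Hmmr, a spindle protein, fell from 13.6 and 12.4 CPM to 1.53 and 1.92 CPM, with a log2 fold change of -2.92 ± 0.15 (SE, adjusted p = 1.56e-06). Dlgap5 (spindle assembly) and Cdca2 (a mitotic chromatin protein) followed at -2.87 and -2.71. Mki67, the antigen used to stain cycling cells, fell by 2.85, Top2a by 2.39 and Cdk1, the mitotic kinase, by 2.26, from 224 and 223 CPM to 49.4 and 44.0 CPM. Jpt1 was the member that rose, from 443 and 490 CPM to 793 and 771 CPM, and Ctcf and Cbx5, chromatin proteins with roles outside mitosis, were not called at -0.28 and -0.24.

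Promoters of cell cycle genes are known for short elements that time their transcription. E2F sites are typical of genes of S phase, and the cell cycle homology region (CHR), often with CCAAT boxes bound by NF-Y, of genes of G2 and M phase. The letters were searched on both strands of RefSeq promoter windows (GRCm38.p6, 250 bases before to 50 after the start), and matches of different motifs may share end bases. TTTGAA (the CHR) was found in 65.4% of the 52 windows of G2 and M phase genes (47 of the 54 genes matched by symbol), against 11.7% of the 12933 windows of genes tested and 17.9% of all 32851 windows. CCAAT was found in 39 of those 52 windows and in 67.6% of the windows of S phase genes, against 38.0% of the windows of genes tested, and both motifs together in 51.9% of the windows of G2 and M phase genes against 4.89%. An E2F motif (TTTGGCGC, TTTCGCGC, TTTCCCGC or TTTGCCGC) was found in 35.3% of the 34 windows of S phase genes (31 of the 43 genes matched) against 3.81% of the windows of genes tested. Among genes called lower by at least 4-fold, TTTGAA was in 21.9% of 589 windows, against 11.3% of 851 windows of genes called higher by that much. The lower set includes genes of the G2 and M phase list, so its share is not independent of the share in that list. A match is only a match of letters and does not show a site in use.

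The 4 S phase genes with the largest falls whose window held an E2F motif before the start are shown with every E2F motif in capitals and 25 bases on each side of the first, 5′ to 3′ on the strand of the gene.
Uhrf1: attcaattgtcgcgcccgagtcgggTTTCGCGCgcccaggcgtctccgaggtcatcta
Cdc6: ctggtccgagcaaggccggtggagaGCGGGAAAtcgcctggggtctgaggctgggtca
Hells: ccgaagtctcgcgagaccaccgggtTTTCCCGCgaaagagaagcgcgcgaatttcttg
Mcm5: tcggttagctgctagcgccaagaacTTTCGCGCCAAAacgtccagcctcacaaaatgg
These stretches lie at chr17:56304103-56304160, chr11:98907988-98908045, chr19:38930903-38930960 and chr8:75109331-75109388, all on the plus strand. In Cdc6 the motif reads on the opposite strand, and in Mcm5 the capitals cover overlapping motifs, one on each strand.

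Shown likewise are 4 G2 and M phase genes with large falls whose window held TTTGAA before the start. Not every window was open to this choice, so these 4 need not be those with the largest falls. Every TTTGAA or its reverse complement is in capitals, and each stretch is cut at the start of the gene.
Mki67: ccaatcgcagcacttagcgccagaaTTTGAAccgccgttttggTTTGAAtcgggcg
Cdc20: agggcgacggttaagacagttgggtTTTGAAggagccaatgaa
Kif2c: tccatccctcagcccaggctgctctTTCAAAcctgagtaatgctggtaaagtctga
Kif11: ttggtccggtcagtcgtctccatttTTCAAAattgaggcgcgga
They lie at chr7:135716465-135716520, chr4:118437344-118437386 and chr4:117178845-117178900 on the minus strand and chr19:37376338-37376381 on the plus strand. The windows of Mki67, Cdc20 and Kif11 also held CCAAT, which begins the stretch shown for Mki67, and that of Kif2c did not. Cdc20, the activator of the anaphase-promoting complex, fell by 2.53 on the log2 scale, and Kif11 and Kif2c, motors of the spindle, by 2.45 and 2.47.

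The regulators of the G1 phase were mixed. Of 28 cyclins, kinases, inhibitors and E2F factors tested, 19 were called lower and 5 higher, with a median of -0.78, and with total counts alone 15 lower and 9 higher. Of the 28, 1 passed the filter only through E12.5, which fixed its direction. Ccnd2, a D-type cyclin of radial glia, fell from 1002 and 1163 CPM to 239 and 235 CPM, while Skp2, Ccne1 and Cdk2 fell by 2.42, 2.32 and 2.24. Cdk5r1, the neuronal activator of Cdk5, rose from 22.5 and 25.1 CPM to 111 and 113 CPM, a log2 fold change of 2.23, and Cdk5 itself, a kinase of migrating neurons, rose by 0.98. Myc rose by 0.99. The inhibitors Cdkn1a and Cdkn1c were called lower at -0.95 and -0.77, and Cdkn1b was not called at 0.27.

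**Figure D2:**
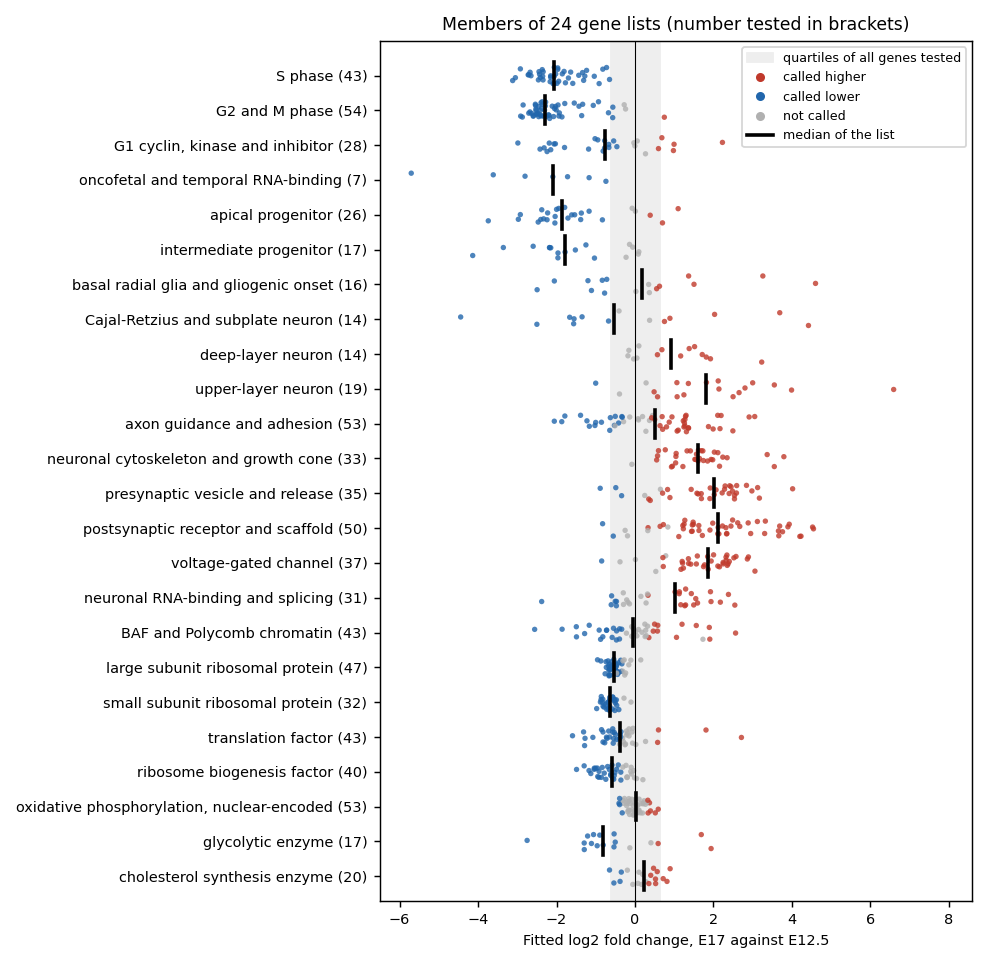
Fitted log2 fold change, E17 against E12.5, of the members of 24 gene lists, 1 point a gene, with called rises in red, called falls in blue, genes not called in grey, list medians as black bars and the quartiles of all genes tested (-0.62 and 0.64) as a grey band. The medians of the S phase, G2 and M phase, apical progenitor and intermediate progenitor lists lie to the left of the band, those of the synaptic, channel and cytoskeleton lists to its right, and that of oxidative phosphorylation inside it.

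Fetal RNA-binding and chromatin factors that mark early progenitors fell together, with 7 of 7 tested called lower and a median of -2.10. Hmga2, an architectural chromatin protein, went from 37.1 and 29.3 CPM at E12.5 to 1.04 and 0.327 CPM at E17, a log2 fold change of -5.71 ± 0.58 (SE, adjusted p = 5.31e-05). Igf2bp1 and Igf2bp2, which bind fetal mRNAs, fell by 3.61 and 2.80. The remaining members, Igf2bp3, Msi1, Hmga1 and Msi2, had log2 fold changes between -2.10 and -0.74. Lin28a, Lin28b and Trim71 were below 32 footprints at both stages and were not tested.

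Apical progenitor genes were called lower in 21 of 26 cases, with a median of -1.87, and 3 were called higher. Prom1, a protein of the apical membrane, fell from 111 and 101 CPM (replicates of E12.5) to 16.3 and 11.8 CPM, a log2 fold change of -2.92 ± 0.15 (SE, adjusted p = 1.56e-06). Gja1, the gap junction connexin of radial glia, had the largest fall of the list at -3.74, and Sox3 fell by 2.98. Nes, the intermediate filament protein followed by the study, fell from 102 and 94.4 CPM to 34.3 and 33.1 CPM, a log2 fold change of -1.54. Pax6, Vim and Sox2 fell by 2.04, 1.79 and 1.39. Components of the Notch pathway fell as well, with Hes1 at -2.47, Notch1 at -2.38 and Hes5 at -1.71.

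The apical members that rose included Fabp7 and Slc1a3. Fabp7, a fatty acid binding protein of radial glia and astrocytes, rose from 998 and 855 CPM to 1898 and 2064 CPM, a log2 fold change of 1.10, and Slc1a3, a glial glutamate transporter, by 0.70. Cdh2 and Arhgef2 were not called.

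Genes of intermediate progenitors were called lower in 12 of 17 cases and higher in 0, with a median of -1.78, and with total counts alone 3 were called higher. Neurog1, a proneural transcription factor, fell from 11.8 and 14.9 CPM to 0.917 and 0.581 CPM, a log2 fold change of -4.14 ± 0.30 (SE, adjusted p = 8.38e-06). Nhlh1, a transcription factor of newborn neurons, fell by 3.36, and Dll1, a Notch ligand, went from 9.13 and 9.78 CPM to 1.89 and 1.23 CPM. Eomes, the defining transcription factor of these cells, fell less, from 54.0 and 61.1 CPM to 25.6 and 22.8 CPM, a log2 fold change of -1.25. Hes6, Elavl4, Rasgef1b, Tcf4 and Insm1 were not called.

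A list of basal radial glia and of the onset of gliogenesis went both ways, with 6 called higher, 7 lower and a median of 0.18. Aldh1l1, an enzyme of folate metabolism used as an astrocyte marker, rose from 1.11 and 0.498 CPM to 15.8 and 19.1 CPM, a log2 fold change of 4.60 ± 0.32 (SE, adjusted p = 6.42e-06). Tnc, an extracellular matrix protein, rose by 3.26, and Ptprz1, a receptor phosphatase, went from 19.5 and 17.8 CPM to 52.3 and 53.1 CPM, while Gpx8, Il6st and Aldoc fell by 2.50, 1.20 and 1.11. The nuclear factor I genes, which drive the onset of gliogenesis, split: Nfix rose by 1.37, Nfia fell by 0.72, and Nfib was not called at 0.02.

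**Figure D3:**
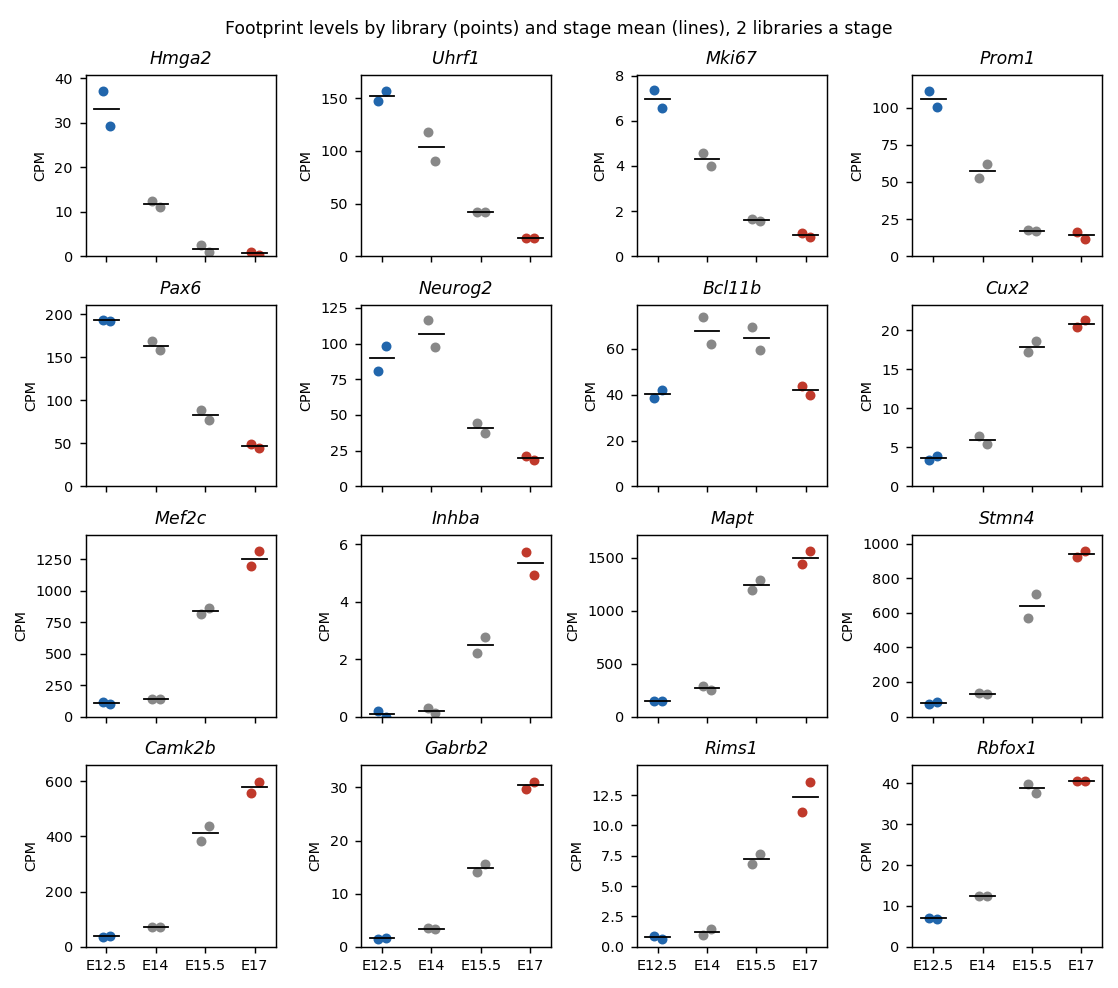
Footprint level (CPM, axes from 0) of 16 genes in each of the 8 prenatal libraries, 2 a stage, with points for libraries and lines for stage means. Hmga2, Uhrf1, Mki67, Prom1, Pax6 and Neurog2 are lower at E17 than at E12.5, Bcl11b is level between these stages with higher values at E14 and E15.5, and the other 9 genes are higher at E17.

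Upper-layer neuron genes were called higher in 16 of 19 cases, with a median of 1.82, and 1 was called lower. Mef2c, an activity-regulated transcription factor, rose from 119 and 96.8 CPM to 1193 and 1314 CPM, a log2 fold change of 3.55 ± 0.10 (SE, adjusted p = 3.81e-07). Pou3f1 rose from 2.27 and 3.20 CPM to 22.9 and 21.7 CPM, and the transcription factors Rorb, Cux2 and Pou3f2 by 2.65, 2.50 and 2.14. The gene of the list with the largest fitted change was Inhba, a subunit of activin. Inhba had 4 and 0 counts at E12.5 and 188 and 136 at E17, below the mean count set for naming. It passed the filter only through E17, which fixed its direction. Plxnd1, a semaphorin receptor, was called lower, from 2.01 and 2.42 CPM to 1.13 and 1.09 CPM, and Cux1 and Bhlhe40 were not called.

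Of 14 deep-layer neuron genes tested, 9 were called higher and 0 lower, with a median of 0.92. The 64.3% called stood beside 64.2% of all genes, and 1 of the 14 passed the filter only through E17. With total counts alone 12 were called higher, so which genes of the list stood level depended on the scaling. Ldb2, a cofactor of LIM domain proteins, rose from 10.4 and 9.85 CPM to 91.7 and 98.2 CPM, a log2 fold change of 3.23 ± 0.11 (SE, adjusted p = 5.22e-07), and Crym and Tle4 rose by 1.92 and 1.52. The 5 that were not called were Tbr1, Fezf2, Sox5, Bcl11b and Pcp4, of which the first 4 are transcription factors that specify deep-layer fates. Bcl11b, which the study followed, had 38.8 and 42.2 CPM at E12.5 and 43.96 and 39.95 CPM at E17, and the stages overlapped. Its log2 fold change was 0.05 ± 0.12 (SE, adjusted p = 0.730), while its means at E14 and E15.5 were 67.9 and 64.7 CPM. The means of Tbr1 were 83.9, 110, 109 and 73.98 CPM at E12.5, E14, E15.5 and E17, and those of Sox5 were 121, 172, 171 and 118 CPM, so in these genes too the middle stages held the highest values.

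Genes of Cajal-Retzius and subplate neurons, the earliest-born neurons of the cortex, went both ways, with 5 called higher, 7 lower and a median of -0.54. Of the 14 tested, 2 passed the filter only through E17 and 2 only through E12.5, which fixed their direction. The transcription factors Ebf3 and Ebf2 fell by 1.55 and 4.45, and Lpar1, a lysophosphatidic acid receptor, fell from 38.8 and 53.4 CPM to 8.71 and 7.44 CPM. Nr4a2, a nuclear receptor of the subplate, rose from 9.61 and 10.1 CPM to 37.0 and 44.3 CPM, a log2 fold change of 2.03. Reln, the secreted signal of Cajal-Retzius cells, rose by 0.75, whereas Trp73, a transcription factor of the same cells, fell by 1.35.

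The neuronal cytoskeleton rose as a whole. Of 33 genes tested, 32 were called higher and 0 lower, with a median of 1.61, and Marcks was the exception, at -0.08. Mapt, the microtubule-associated protein tau, rose from 147 and 144 CPM to 1441 and 1563 CPM, a log2 fold change of 3.37 ± 0.09 (SE, adjusted p = 3.39e-07). Stmn4, a stathmin of neurons, rose from 75.3 and 84.8 CPM to 920 and 956 CPM, and Nefl, the light neurofilament, from 1.00 and 0.889 CPM to 12.3 and 14.3 CPM. Gap43, a protein of the growth cone, Dcx, of migrating neurons, and Map2, of dendrites, rose by 2.35, 1.52 and 1.33. Summed over the list, the level went from 45280 and 37650 CPM at E12.5 to 96340 and 97610 CPM at E17.

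Synaptic genes rose on both sides of the synapse. Of 35 presynaptic genes, 1 of which passed the filter only through E17, 30 were called higher and 3 lower, with a median of 2.02, and of 50 postsynaptic genes, 12 of which passed only through E17, 44 were called higher and 2 lower, with a median of 2.11. Rims1, a scaffold of the active zone, rose from 0.898 and 0.640 CPM to 11.1 and 13.6 CPM, a log2 fold change of 4.02 ± 0.29 (SE, adjusted p = 8.53e-06). Cplx1, which clamps vesicle fusion, and Sncb, beta-synuclein, rose by 3.17 and 3.12. The SNARE protein Snap25 and the calcium sensor Syt1 rose by 2.84 and 2.98. The 3 presynaptic genes called lower were Unc13b, a vesicle priming factor, Slc17a6, a vesicular glutamate transporter, and Syt11, with log2 fold changes of -0.89, -0.49 and -0.34, and without E17 replicate 2 the number called lower was 1. Slc17a7, the transporter that later replaces Slc17a6 in the cortex, was not called at 0.25.

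Among postsynaptic genes, receptors were called at higher levels across classes. Grm3, a metabotropic glutamate receptor, went from 12 counts to 389, a pooled ratio of 25.3 with a counting interval of 14.3 to 49.4. Grm3 passed the filter only through E17, which fixed its direction. Gabrb2, a GABA-A receptor subunit, rose from 1.48 and 1.74 CPM to 29.6 and 31.1 CPM, a log2 fold change of 4.20 ± 0.15 (SE, adjusted p = 5.75e-07). Camk2b, a subunit of the calcium/calmodulin kinase, rose from 35.0 and 40.5 CPM to 555 and 598 CPM, whereas Camk2a, its later partner, was not called at 0.33 and overlapped between stages. The NMDA receptor subunits Grin2b, Grin1 and Grin2a rose by 3.66, 2.95 and 1.72. In the family of PSD-95 scaffolds the members diverged, as Dlg2 rose by 3.32, Dlg4 by 1.63 and Dlg3 by 0.33, and Dlg1 fell by 0.83.

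Voltage-gated channels were called higher in 32 of 37 cases and lower in 1, with a median of 1.85. Scn2a, listed as Scn2a1 and the main sodium channel of young axons, rose from 1.16 and 0.996 CPM to 9.01 and 8.96 CPM, a log2 fold change of 3.06 ± 0.17 (SE, adjusted p = 2.62e-06). Cacnb4, a calcium channel subunit, and Kcnq5, a potassium channel of the M-current, rose by 2.89 and 2.57. The filter was passed only through E17 by 13 of the 37, which had to be higher there, and with at least 32 footprints required in each stage 20 of 24 were called higher. The channel called lower was Cacnb2 at -0.85.

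Genes of axon guidance and adhesion were mixed, with 28 called higher, 16 lower, 9 not called and a median of 0.50, and with total counts alone 34 were called higher and 8 lower. Of the 53 tested, 1 passed the filter only through E12.5, which fixed its direction. Chl1, Cntn1 and Nrxn3, neuronal adhesion proteins, rose by 3.05, 2.91 and 2.49. Chl1 went from 14.7 and 11.6 CPM to 105 and 110 CPM. Epha4, an ephrin receptor, fell from 175 and 174 CPM to 74.8 and 59.1 CPM, Slit2, a repellent ligand, from 12.6 and 12.6 CPM to 3.36 and 3.52 CPM, and the ligand Efnb1 by 1.79. Among receptors, Robo1 and Robo2, the receptors of Slit proteins, rose by 1.36 and 1.23 and Dcc, a netrin receptor, fell by 1.23.

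RNA-binding proteins of neurons were called higher in 17 of 31 cases and lower in 6, with a median of 1.02. The 74.2% called stood beside 64.2% of all genes, and with total counts alone 20 were called higher and 1 lower. Rbfox1, a splicing factor, rose from 7.08 and 6.83 CPM to 40.7 and 40.5 CPM, a log2 fold change of 2.54 ± 0.08 (SE, adjusted p = 4.49e-07), and Celf6 and Celf5 rose by 2.38 and 2.17. Ptbp1, the splicing repressor of progenitors, fell from 399 and 488 CPM to 81.0 and 88.7 CPM, a log2 fold change of -2.38. Ptbp2, its relative in neurons, and Ybx1 were called lower at -0.60 and -0.61. The Hu proteins Elavl2 and Elavl4 were not called, and Elavl3 rose from 85.4 and 99.4 CPM to 257 and 264 CPM.

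In a list of 43 BAF and Polycomb chromatin genes, 11 were called higher and 18 lower, with a median of -0.05. Of the 43, 1 passed the filter only through E17, which fixed its direction. The 67.4% called was close to the 64.2% of all genes, and with total counts alone the balance turned, to 20 higher and 10 lower with a median of 0.35. Actl6a, the actin-like BAF subunit of progenitors, fell from 101 and 102 CPM to 29.1 and 26.9 CPM, while Actl6b, its neuronal counterpart, rose from 16.7 and 21.3 CPM to 115 and 111 CPM. The neuronal subunits Ss18l1 and Dpf1 rose by 1.91 and 1.89. Ezh2, the methyltransferase of the second Polycomb repressive complex, fell from 222 and 194 CPM to 68.0 and 79.5 CPM, and Eed and Suz12, its partners, by 1.49 and 1.17. Cbx2, a Polycomb reader, had the largest fall, -2.56.

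Pairs of related genes in which one gained footprints relative to the other were found in several lists, and those described here were chosen after their values were seen. The ratio of the footprints of 2 genes within a library does not depend on library scaling. Footprints of Actl6b per footprint of Actl6a went from 0.166 and 0.209 at E12.5 to 3.94 and 4.13 at E17, and those of Ss18l1 per Ss18 from 0.120 and 0.133 to 0.912 and 0.893. For the hexokinases, Hk1 per Hk2 went from 2.07 and 1.73 to 42.9 and 38.9. For the enolases, Eno2 per Eno1 went from 0.0347 and 0.0358 to 0.342 and 0.289. Eif4a2 per Eif4a1, the helicases of translation initiation, went from 0.454 and 0.386 to 1.58 and 1.69, and Eef1a2 per Eef1a1, the elongation factors, from 0.00328 and 0.00304 to 0.0283 and 0.0323. In these pairs both E17 libraries lay above both E12.5 libraries. Eif4a1 itself was not called at -0.15, so that pair rested on the rise of Eif4a2. In the pair of Ptbp2 and Ptbp1 both genes were called lower, and the ratio rose from 1.29 and 1.08 to 4.03 and 4.06.

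**Figure D4:**
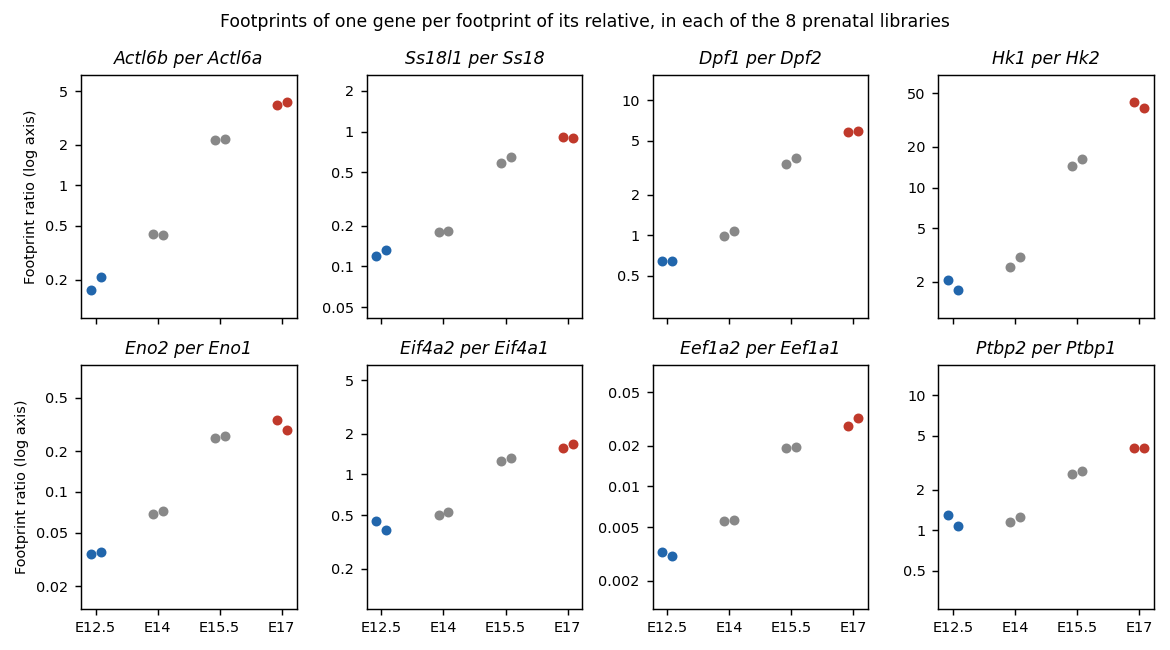
Footprints of one gene per footprint of its relative (vertical axes, log scale, not corrected for length) in each of the 8 prenatal libraries, for 8 pairs, with E12.5 in blue, E14 and E15.5 in grey and E17 in red. In each pair both E17 libraries lie above both E12.5 libraries, from 0.166 and 0.209 to 3.94 and 4.13 for Actl6b per Actl6a.

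Ribosomal protein genes were lower at E17, with a shift that was small beside that of the cell cycle genes and depended on the scaling. For the large subunit 38 of 47 genes were called lower and 0 higher, with a median of -0.54, and for the small subunit 30 of 32 were called lower and 0 higher, with a median of -0.65. With total counts alone the medians were -0.14 and -0.25, and 5 and 9 genes were called lower. Rps4x, of the small subunit, had the largest fall, from 431 and 394 CPM to 218 and 201 CPM, a log2 fold change of -0.98 ± 0.07 (SE, adjusted p = 1.12e-05). Rpl39, of the large subunit, fell from 1249 and 1106 CPM to 650 and 566 CPM, a log2 fold change of -0.96. Rpl5 and Rps2 fell by 0.87 and 0.88. Rpl38 stood at 0.15 and was not called. The study chose this family from these libraries, so its direction is not independent evidence.

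Factors that build and serve ribosomes were also lower on balance. Of 40 ribosome biogenesis factors, 28 were called lower and 0 higher, with a median of -0.58, led by Dkc1, a pseudouridine synthase, at -1.49 (with total counts alone, 15 lower and 4 higher). Of 43 translation factors, 24 were called lower and 4 higher, with a median of -0.39 that moved to 0.01 with total counts alone. The 65.1% called was close to the 64.2% of all genes. Eif4ebp1, the repressor of cap-dependent initiation that the study followed, fell from 6.60 and 6.79 CPM to 1.99 and 2.50 CPM, a log2 fold change of -1.59 ± 0.14 (SE, adjusted p = 2.84e-05). Eif4g1, the initiation scaffold, and Pabpc1, the poly(A)-binding protein, fell by 1.31 and 1.29, whereas Eef1a2 and Eif4a2 rose by 2.71 and 1.81.

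Energy metabolism differed by pathway. Of 53 nuclear genes of oxidative phosphorylation, 43 were not called, 6 were called higher and 4 lower, with a median of 0.01 and quartiles of -0.15 and 0.13, and with total counts alone 33 were called higher and 0 lower. Of 17 glycolytic enzymes, 12 were called lower and 3 higher, with a median of -0.81. With total counts alone 9 were called lower and 4 higher, with a median of -0.41. Hk2, the hexokinase of proliferating cells, fell from 13.8 and 14.8 CPM to 1.93 and 2.36 CPM, a log2 fold change of -2.75 ± 0.16 (SE, adjusted p = 2.81e-06), and Pgk1 and Pkm fell by 1.30 and 1.29. Hk1 and Eno2, the forms that neurons use, and Pfkm rose by 1.69, 1.94 and 0.59. Of 20 enzymes of cholesterol synthesis, 9 were called higher and 4 lower, with a median of 0.24, and the 65.0% called was close to the 64.2% of all genes. They included Tm7sf2 at 0.89, Fdft1 at 0.81 and, on the lower side, Ebp at -0.65. Without E12.5 replicate 2 the number called lower was 2, and with total counts alone 14 were called higher and 0 lower.

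The stages between placed most of the change before E17. Of the 810 genes called higher by at least 4-fold, 668 (82.5%) had stage means that rose at each step from E12.5 through E14 and E15.5 to E17, and of the 686 called lower by that much, 451 (65.7%) fell at each step. On the log2 scale of stage mean CPM plus 0.5, the median steps of those that rose were 0.37, 1.10 and 0.58, and of those that fell -0.37, -1.20 and -0.29, with the largest step from E14 to E15.5 in both. These steps share libraries and are given as a description. Of all genes called higher 60.29% rose at each step, and of all called lower 53.65% fell at each step. S phase genes fell at each step in 43 of 43 cases. Intermediate progenitor genes did so in 3 of 17, and their median step from E12.5 to E14 was 0.12, before steps of -1.08 and -0.53.

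**Figure D5:**
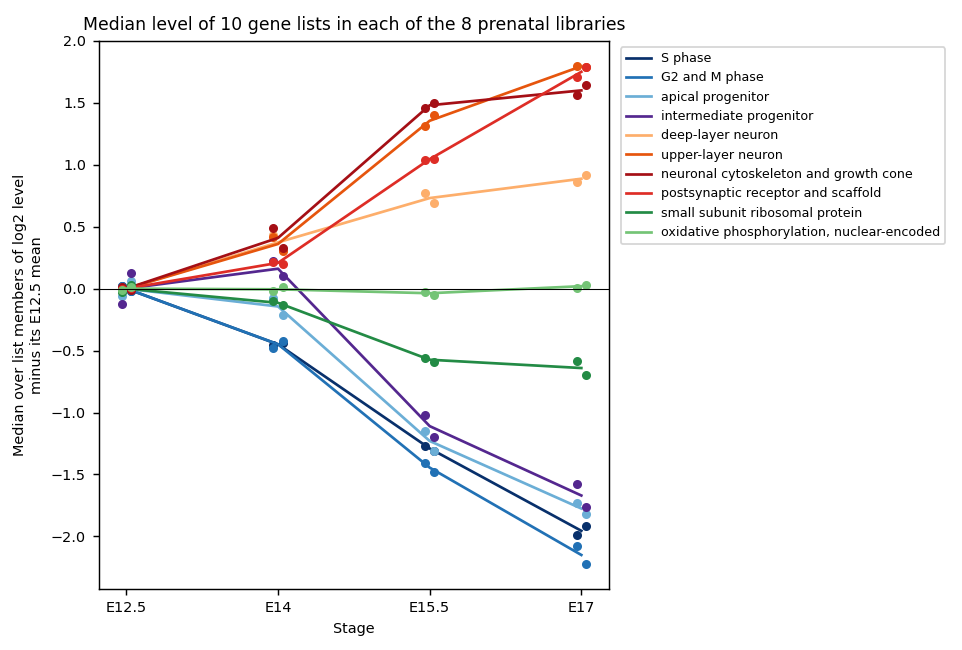
Median over the members of 10 gene lists of the log2 level in a library minus its mean at E12.5 (vertical axis), for each of the 8 prenatal libraries (points) with lines through stage means. Lists of the cell cycle and of progenitors reach about -1.58 to -2.22 at E17, lists of neurons and synapses rise, and genes of oxidative phosphorylation stay between -0.05 and 0.03.

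Markers of other tissues moved with stage. All 3 embryonic globins, 10 of 10 genes of meningeal fibroblasts and 7 of 7 tested genes of the choroid plexus were called lower. Their summed levels were 1435 and 1521, 195 and 185, and 326 and 272 CPM at E12.5, against 4.49 and 2.87, 52.2 and 39.9, and 7.85 and 7.29 CPM at E17. The choroid plexus genes were highest at E14, at 1085 and 1084 CPM. Of the embryonic globin, meningeal, choroid plexus and pericyte genes, 1, 4, 5 and 2 passed the filter only through E12.5, which fixed their direction. So did 1 fetal and adult red blood cell gene and 1 endothelial gene, while 1 other endothelial gene passed only through E17. Of 7 genes of fetal and adult red blood cells, 4 were called lower, with summed levels of 9334 and 9519 CPM at E12.5 and 6985 and 7011 CPM at E17. Hba-a1 fell by 0.69, while Hbb-bs and Hbb-bt were not called at -0.21, and these globins have near-identical copies, so the split of reads between them is uncertain. Of 14 endothelial genes 10 were called lower and 3 higher, with summed levels of 106 and 108 CPM at E12.5 and 72.4 and 78.9 CPM at E17. Of 7 pericyte genes 3 were called lower and 1 higher, with summed levels of 51.1 and 45.2 CPM against 67.0 and 76.0 CPM. Of the pericyte genes, as of the fetal and adult red blood cell genes, 57.1% were called, against 64.2% of all genes. The part of these tissues in the results above was not tested.

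Genes that mark tissue next to the neocortex were mostly lower. All 5 thalamus and 6 of 8 hippocampus genes were called lower, and the other 2 hippocampus genes, Zbtb20 and Grik4, were called higher, at 1.76 and 1.77. Of the 8, 2 passed the filter only through E12.5 and 1 only through E17. The lists had summed levels of 140 and 137 CPM, and 113 and 114 CPM, at E12.5, and 31.8 and 29.6 CPM, and 39.4 and 37.8 CPM, at E17. Without E12.5 replicate 2, 3 of the 5 thalamus genes were called. Lef1, Prox1 and Lhx9 are in both lists, so their falls were counted in each. Lhx9 fell from 58.4 and 57.5 CPM to 2.72 and 1.52 CPM. Emx1, a gene of progenitors of the dorsal telencephalon, was present at both stages, at means of 51.5 and 16.9 CPM. The share of the falls that came with these tissues was not tested.

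Interneurons, which are born outside the cortex in the ganglionic eminence and migrate in, showed the opposite. Of 15 of their genes tested, 4 of which passed the filter only through E17, 13 were called higher and 0 lower, with a median of 2.598 and summed levels of 68.3 and 81.6 CPM at E12.5 and 297 and 301 CPM at E17. Npy, a neuropeptide, rose from 2.48 and 3.41 CPM to 93.3 and 85.9 CPM, a log2 fold change of 4.90 ± 0.15 (SE, adjusted p = 4.00e-07), and Lhx6, the transcription factor of medial eminence interneurons, from 7.34 and 7.25 CPM to 70.7 and 74.02 CPM. Gad1, the enzyme that makes GABA, rose by 3.70. Gsx2 had 0 counts in both E12.5 libraries and 23 and 28 at E17, and Lhx8 had 0 in all 4. The part of these genes' cells in the rise of synaptic and channel genes was not tested.

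Glial genes moved in different directions. Of 9 oligodendrocyte lineage genes tested, 5 were called higher and 0 lower, but 3 of the 9 passed the filter only through E17 and had to be higher there. The 55.6% called stood beside 64.2% of all genes. The summed levels of the 9 were 39.5 and 43.2 CPM at E12.5 and 105 and 119 CPM at E17. Olig2 had a log2 fold change of 3.56, while Sox10 and Pdgfra, genes of committed precursors, were not called and overlapped between stages. Of 10 astrocyte genes 5 were called higher and 4 lower, with summed levels of 477 and 506 CPM at E12.5 and 306 and 326 CPM at E17. Of the 10, 1 passed the filter only through E17 and 1 only through E12.5, which fixed their direction. Gfap, the classic astrocyte filament, rose from a mean of 0.124 to 0.850 CPM, and passed the filter only through E17. Of the 2 most abundant members, Aldoc was called lower at -1.11 and Apoe was not called at -0.12. Aldh1l1 was called higher at 4.60 and Gja1 lower at -3.74. Of the microglia genes 27.3% were called, against 64.2% of all genes. Of 11 microglia genes 8 were not called and 3 were called higher, with P2ry12 at 0.73 and Aif1 at 0.80, and without E17 replicate 1 0 were called higher and 2 lower.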

How the data were processed

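Ribosome footprint counts per gene were deposited for 10 neocortex libraries and are whole numbers that were not normalized. According to the methods, the authors removed duplicate reads and trimmed random bases, filtered rRNA and tRNA reads, and aligned the rest to GENCODE M12 transcripts, keeping reads that map to several places. The submitters' processing notes name STAR 2.7.0. Whether the gene table is the output of the probabilistic assignment named in the methods is not given in the sources used here. Kept multimapping reads and estimated assignment can split footprints between similar genes.

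The 8 prenatal libraries held 21378041 to 36129988 counts. Counts were scaled by TMM (edgeR 4.0.16) and fitted with limma-voom (limma 3.58.1, R 4.3.3) with 1 coefficient per stage and 4 residual degrees of freedom. The contrast of E17 with E12.5 was two-sided, with Benjamini-Hochberg adjustment over 12969 genes. P-values measure the spread between pools. The code was tested on simulated data. Alternatives included edgeR's quasi-likelihood test, DESeq2 1.42.0, other scalings and filters, and each library left out. Count-ratio intervals are 95% intervals for counting error only.

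Genes were named by rule: the 10 largest rises and falls among called genes averaging 100 counts or more and without overlap between stages, the 5 largest CPM gains and losses outside Hist genes, up to 3 called rises and falls per list under the same count minimum, genes the study followed, and the 2 most abundant members of each marker list. Other named genes, and the pairs, were chosen after their values were seen. Some members of the lists are counted but not reported by name here. The comparison and the gene lists were chosen with earlier results of these data known. Promoter sequences are from RefSeq (GRCm38.p6), and 9981 of the tested genes matched a window by symbol.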

Additional observations from a re-analysis of the deposited data

How the results depend on the processing

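With total counts in place of TMM factors, 6451 genes were called higher and 2396 lower, each more than 1.5 times from the main value, while the sum of both was 8847 against 8328. In the other alternatives the counts called higher and lower stayed within 1.5 times of 4188 and 4140. edgeR's quasi-likelihood test called 4139 higher and 4176 lower, DESeq2 called 3572 and 3609, and testing against a 25% change itself called 3102 and 2957. Leaving out each library in turn gave between 7522 and 8316 called genes. Without E12.5 replicate 1, the library in which 34 genes were at least 10 times as high as in replicate 2, 3932 were called higher and 4099 lower.

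Of 161 genes named by the rule, 157 were called, and 141 kept the same call in those of the 26 alternatives that gave them a value. With at least 32 footprints required in each stage, 143 of the 161 had a value. With total counts alone the sign turned for Apoe (0.28), Atp5a1 (0.0063), Hbb-bs (0.19), Hbb-bt (0.19), Idi1 (0.0197), Sdhd (0.0086) and Syt11 (0.0596). Bcl11b, which was not called, ranged from -0.0278 to 0.117 when single libraries were left out, below 0 without E12.5 replicate 1 or E17 replicate 1, and was -0.0035 with total counts taken without Hist genes.

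The replicate numbers of the labels mark separate pools. The correlation of replicate differences between stages ran from -0.39 to 0.24, and was -0.11 between E12.5 and E17, so the numbers were not taken to pair the libraries. With a replicate block 4127 genes were called higher and 4111 lower. With the E12.5 numbers crossed, an alternative added after seeing the data, 4240 and 4261 were called. With 2 libraries a stage the spread rests on 4 degrees of freedom shared across stages, and genes with few counts at one stage have imprecise fold changes.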

Other observations

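Transcripts known from gut epithelium were found in E12.5 replicate 1. Of the 34 genes with at least 100 counts there and a level at least 10 times that of replicate 2, 11 that are known from the lining of the intestine were grouped after their values were seen: Fabp1, Fabp2, Apoa1, Apoa4, Apoc3, Rbp2, Reg1, Muc13, Prap1, Defa24 and Sprr2a2. They include fatty acid carriers, apolipoproteins, a retinol-binding protein, a mucin and a defensin of Paneth cells. Their summed counts were 3789 in E12.5 replicate 1 and 60 in replicate 2, and between 43 and 101 in the other 6 prenatal libraries. The summed level was 200.1 CPM against 2.13 CPM. Fabp2 had 496 counts in E12.5 replicate 1 and 0 in replicate 2. No gene met the same rule in E12.5 replicate 2, and at most 2 did in any other prenatal library. In the fit by limma-voom, 0 of the 11 were called between E17 and E12.5. They were picked by a gap between replicates, which made a call unlikely, so this does not show that the comparison was unaffected. The source of these footprints was not tested.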
